A study of Mus musculus with 16 samples.

Results

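The 10 genes described here belong to calcium signalling through calcineurin and NFAT, and their transcripts were measured by RNA sequencing in mouse CD8+ T cells: *Stim1*, *Orai1*, *Itpr1*, *Ppp3ca*, *Ppp3cc*, *Rcan1*, *Nfatc1*, *Nfatc2*, *Nfatc3* and *Camk4*. They were taken by gene symbol from the count table, which lists 54532 genes, and all 10 were found and passed the filter on low counts in every comparison. The cells were naive CD8+ T cells from the spleen of C57BL/6J mice that had been activated repeatedly in culture over 4 days, which yields antigen-experienced cells with the transcription factor TCF1, so every group had been through T cell receptor stimulation before the experiment. They were then held for 1 h with or without prostaglandin E2 (PGE2) at 100 ng/ml and cultured for a further 4 h in IL-2 at 85 U/ml. The groups named unstimulated untreated and unstimulated PGE2 received IL-2 alone, and those named stimulated untreated and stimulated PGE2 also received beads carrying antibodies to CD3 and CD28, at 1 bead per cell, with 4 replicates in each of the 4 groups. The comparisons asked how PGE2 alters the transcripts of these cells, at rest and after receptor stimulation. Whether replicates came from separate mice or cultures is not given in the labels, so p-values measure only the spread between these samples.

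When the T cell receptor is engaged, phospholipase C gamma makes inositol trisphosphate, which opens receptors such as the one encoded by *Itpr1* and empties the calcium store of the endoplasmic reticulum. STIM1 senses the empty store and opens ORAI1, the pore of the calcium channel in the plasma membrane. Calcium bound to calmodulin then activates calcineurin, a phosphatase whose catalytic subunits are encoded by *Ppp3ca*, *Ppp3cb* and *Ppp3cc*, and calcineurin removes phosphates from NFAT proteins so that they enter the nucleus. RCAN1 binds and restrains calcineurin, and kinases of the GSK3, DYRK and casein kinase 1 families put the phosphates back. CAMK4 is a nuclear kinase that is also switched on by calcium and calmodulin. PGE2 acts on T cells mainly through receptors that raise cyclic AMP. Most of this pathway is controlled by protein modification and location, which RNA counts do not measure.

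Start regions of some of the genes described below are shown as the 250 bases upstream of a start site, from the RefSeq promoter table on GRCm38.p6. The search covered 8 windows for 5 of the 10 genes (*Stim1*, *Orai1*, *Rcan1*, *Nfatc2* and *Nfatc3*). No window of the other genes was searched, so nothing is said of the letters at their start sites. Capitals mark GGAAA, the core that NFAT proteins bind, and TGACG, the shared part on each strand of the cyclic AMP response element TGACGTCA, each read on both strands (TTTCC and CGTCA). *Rcan1* and *Nfatc2* are shown at both of their start sites because these differ in the letters found, and they were chosen because *Rcan1* inhibits calcineurin and *Nfatc2* changed with both stimulation and PGE2. *Stim1* and *Orai1* are shown because they are partners whose transcripts moved in opposite directions with stimulation.
Rcan1, upstream start site, chr16:92466170-92466419, minus strand: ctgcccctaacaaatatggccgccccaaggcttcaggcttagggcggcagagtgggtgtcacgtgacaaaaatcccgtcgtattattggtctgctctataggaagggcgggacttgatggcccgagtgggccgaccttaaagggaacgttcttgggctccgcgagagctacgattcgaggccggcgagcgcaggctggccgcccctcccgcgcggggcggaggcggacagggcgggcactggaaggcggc
Rcan1, downstream start site, chr16:92400079-92400328, minus strand: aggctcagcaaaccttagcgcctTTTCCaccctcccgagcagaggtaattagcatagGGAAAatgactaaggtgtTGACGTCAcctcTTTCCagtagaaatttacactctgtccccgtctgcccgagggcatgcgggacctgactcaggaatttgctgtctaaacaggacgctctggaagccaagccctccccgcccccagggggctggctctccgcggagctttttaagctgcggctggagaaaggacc
Orai1, chr5:123014824-123015073, plus strand: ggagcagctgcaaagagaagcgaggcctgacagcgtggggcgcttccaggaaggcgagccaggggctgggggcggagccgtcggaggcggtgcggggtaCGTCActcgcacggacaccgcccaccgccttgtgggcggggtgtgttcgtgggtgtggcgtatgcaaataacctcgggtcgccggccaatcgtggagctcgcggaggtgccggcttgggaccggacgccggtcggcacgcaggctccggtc
Stim1, chr7:102267569-102267818, plus strand: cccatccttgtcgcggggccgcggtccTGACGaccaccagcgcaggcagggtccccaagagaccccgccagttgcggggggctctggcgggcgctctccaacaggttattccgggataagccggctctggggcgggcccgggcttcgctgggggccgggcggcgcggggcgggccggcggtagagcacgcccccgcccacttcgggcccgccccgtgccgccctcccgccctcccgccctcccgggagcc
Nfatc2, upstream start site, chr2:168601658-168601907, minus strand: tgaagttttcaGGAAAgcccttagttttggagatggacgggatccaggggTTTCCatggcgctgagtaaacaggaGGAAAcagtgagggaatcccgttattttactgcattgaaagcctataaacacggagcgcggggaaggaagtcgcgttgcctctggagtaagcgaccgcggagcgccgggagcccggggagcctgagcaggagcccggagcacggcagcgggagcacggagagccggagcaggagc
Nfatc2, downstream start site, chr2:168590366-168590615, minus strand: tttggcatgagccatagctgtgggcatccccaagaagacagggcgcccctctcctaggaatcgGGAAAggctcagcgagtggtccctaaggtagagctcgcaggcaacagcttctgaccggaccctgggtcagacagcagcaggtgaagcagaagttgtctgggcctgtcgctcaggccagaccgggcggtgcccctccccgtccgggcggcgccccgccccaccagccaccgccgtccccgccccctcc
The window at the downstream *Rcan1* start held 3 copies of GGAAA and 1 full TGACGTCA, whose 2 strands give the 2 copies of TGACG counted there, and the window at the upstream start held 0 of either. At least 3 copies of GGAAA were found in 6.39% of the 32851 windows of the table and at least 1 copy in 55.6%. TGACGTCA was found in 1.55% of windows and TGACG in 17.8%. The *Orai1* and *Stim1* windows each held 1 copy of TGACG and 0 copies of GGAAA, and the *Nfatc2* windows held 3 copies of GGAAA at the upstream and 1 at the downstream start. Of the *Nfatc3* windows, which are not shown, the upstream one held 1 copy each of GGAAA and TGACG and the downstream one 0 of either. The count table sums both *Rcan1* transcripts, so their use could not be separated, and a match of letters shows no binding.

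The genes themselves lie as follows on GRCm38, by the count table. *Stim1* (ENSMUSG00000030987) lies at chr7:102267806-102437319 on the plus strand, *Orai1* (ENSMUSG00000049686) at chr5:123015074-123030456 on the plus strand, and *Itpr1* (ENSMUSG00000030102) at chr6:108213096-108551109 on the plus strand. *Ppp3ca* (ENSMUSG00000028161) lies at chr3:136670124-136937727 on the plus strand, *Ppp3cc* (ENSMUSG00000022092) at chr14:70217865-70289471 on the minus strand, and *Rcan1* (ENSMUSG00000022951) at chr16:92391953-92470867 on the minus strand. *Nfatc1* (ENSMUSG00000033016) lies at chr18:80606205-80713071 on the minus strand, *Nfatc2* (ENSMUSG00000027544) at chr2:168476410-168601657 on the minus strand, and *Nfatc3* (ENSMUSG00000031902) at chr8:106058840-106130537 on the plus strand. *Camk4* (ENSMUSG00000038128) lies at chr18:32939041-33195767 on the plus strand. Counts are reads over all exons of a gene. In the GENCODE M21 annotation, 5 of the 10 genes share between 0.305% (*Orai1*) and 3.05% (*Ppp3cc*) of their exon bases with a gene on the opposite strand, and these partners had a mean of at most 0.556 CPM. For *Camk4* the count table uses another span and 12331 bases, against 3259 exon bases in GENCODE M21. Its remaining counted bases were not checked for overlap.

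The 16 libraries held between 22678254 and 42950763 counts assigned to genes, and the lowest count of any of the 10 genes in any library was 214 (*Rcan1*). Values are given as CPM, counts scaled to the library total and to the TMM factors of all 16 libraries, or, for levels compared between genes, as FPKM, which also divides by the length of the exons. All 8 CD8 T cell marker genes were above 1 CPM, with *Tcf7*, the gene of TCF1, at 1174 CPM in unstimulated untreated and 308 CPM in stimulated untreated cells. The sum of the B cell markers ran from 4.60 to 22.1 CPM and was lower in stimulated cells. The myeloid markers summed to between 3.44 and 6.89 CPM, with *Cd68* at group means of 3.27 to 5.10 CPM and *S100a8* and *S100a9* at 0. The sum of the CD4 T cell markers ran from 14.5 to 40.1 CPM. Of these, *Zbtb7b* had group means of 15.0 to 27.3 CPM and *Foxp3* of 4.24 to 5.92 CPM. *Cd4* itself stood at group means under 1 CPM and at most 1.87 CPM in any library. Erythroid and platelet markers summed to between 1.31 and 3.49 CPM. The natural killer list rose to 178 CPM with stimulation through *Eomes*, a gene that CD8 T cells also express, while *Ncr1* and *Klra8* were at 0. The part of other cells in the results was not tested, and in bulk RNA fewer cells of a type and less RNA per cell cannot be told apart.

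The levels per length set the order of the 10 transcripts in each state. In unstimulated untreated cells, *Ppp3cc* stood highest at 32.9 ± 0.287 FPKM (SD, n = 4), above *Nfatc3* at 21.4 ± 1.93 and *Nfatc1* at 21.0 ± 1.16, which overlapped each other. *Orai1* followed at 16.9 ± 1.44, then *Camk4* at 12.7 ± 0.247 and *Stim1* at 11.1 ± 1.08 FPKM. *Ppp3ca* at 8.76 ± 1.17 overlapped both *Stim1* and *Nfatc2*, the latter at 7.99 ± 0.479 FPKM. *Rcan1* at 3.69 ± 0.0794 and *Itpr1* at 3.12 ± 0.450 FPKM were lowest and did not overlap. In stimulated untreated cells the order was different. *Nfatc1* at 57.0 ± 6.67 and *Orai1* at 54.99 ± 7.39 FPKM now led and overlapped each other, and *Ppp3cc* came next at 18.3 ± 1.92 FPKM. Below it stood *Nfatc3* at 9.49 ± 0.763, *Camk4* at 8.02 ± 0.993 and *Ppp3ca* at 6.64 ± 0.673 FPKM, each overlapping the next. *Nfatc2* at 5.6 ± 0.478 FPKM overlapped both *Ppp3ca* and *Stim1*, the latter at 5.33 ± 0.341 FPKM. *Rcan1* at 3.40 ± 0.0783 and *Itpr1* at 2.79 ± 0.407 FPKM were lowest and here overlapped narrowly. With PGE2, *Camk4* moved to the top of the unstimulated order at 27.2 ± 2.17 FPKM, overlapping *Ppp3cc* at 26.1 ± 3.25 and *Orai1* at 23.8 ± 1.55. In stimulated PGE2 cells *Orai1* at 55.1 ± 6.13 FPKM stood above *Nfatc1* at 38.6 ± 5.95 without overlap, and *Ppp3cc* at 17.4 ± 3.45 and *Camk4* at 16.5 ± 0.980 FPKM overlapped below them. The FPKM of *Camk4* rests on a gene length of 12331 bases in the deposited table against 3259 exon bases in GENCODE M21, so its place in this order depends on the annotation, while its comparison between groups does not use the length.

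**Figure D1:**
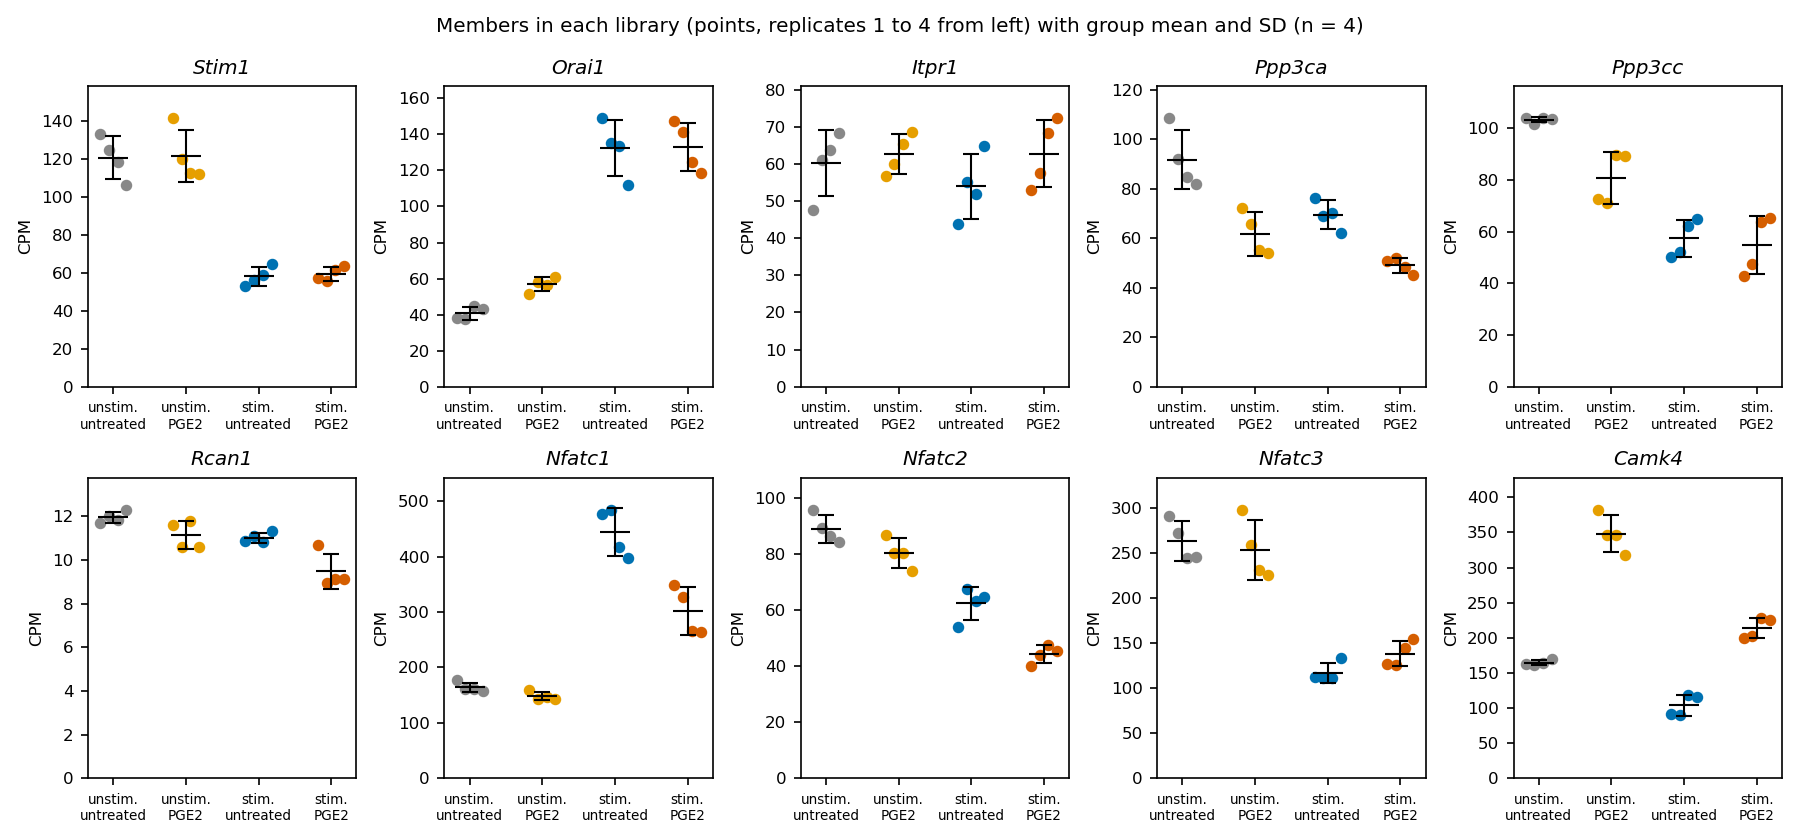
TMM-scaled CPM of the 10 genes, each in its own panel, in the 4 groups. Points are the replicates, 1 to 4 from the left, and bars mark group means with their SD (n = 4). *Orai1* and *Nfatc1* sit higher in both stimulated groups, *Camk4* sits higher in both PGE2 groups, and *Rcan1* stays between 8.95 and 12.3 CPM.

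Of the genes that bring calcium into the cytosol, *Orai1*, the channel pore, had 38.1, 37.4, 44.7 and 43.2 CPM in the 4 unstimulated untreated replicates and 149, 135, 134 and 112 CPM in the stimulated untreated ones. The groups were far apart, and *Orai1* rose 3.21-fold with stimulation (log2 fold change 1.68, SE 0.104, edgeR adjusted p = 4.79e-08). In unstimulated PGE2 cells it had 51.5, 58.2, 56.7 and 60.6 CPM, all above the untreated replicates, a 1.41-fold rise (log2 fold change 0.49, SE 0.0826, edgeR adjusted p = 0.00104). Stimulated PGE2 replicates, at 147, 141, 125 and 119 CPM, overlapped the stimulated untreated ones (log2 fold change 0.01, SE 0.0987, edgeR adjusted p = 0.945). Starting from the higher unstimulated level, stimulation with PGE2 present raised *Orai1* 2.37-fold (edgeR adjusted p = 2.44e-06).

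*Stim1*, the store sensor, went the other way with stimulation. Its 4 replicates had 133, 125, 118 and 106 CPM in unstimulated untreated cells and 53.0, 56.1, 59.1 and 64.5 CPM in stimulated untreated cells, with no overlap, a 2.10-fold fall (log2 fold change -1.07, SE 0.0809, edgeR adjusted p = 2e-07). With PGE2, the values were 141, 120.1, 113 and 112 CPM unstimulated and 57.3, 55.8, 61.4 and 63.7 CPM stimulated, a 2.02-fold fall (edgeR adjusted p = 2.65e-06). PGE2 itself left the *Stim1* ranges overlapping in both states, with log2 fold changes of 0.03 (SE 0.0811) unstimulated and 0.04 (SE 0.0797) stimulated (edgeR adjusted p = 0.837 and 0.772). The ratio of *Stim1* to *Orai1* FPKM, a description without a test, was 0.661 in unstimulated untreated, 0.478 in unstimulated PGE2, 0.0990 in stimulated untreated and 0.1003 in stimulated PGE2 cells. This ratio of 2 transcripts says nothing of the ratio of the proteins.

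*Itpr1*, an inositol trisphosphate receptor, varied more between replicates than between groups. It had 47.7, 60.9, 63.6 and 68.4 CPM in unstimulated untreated, 56.7, 60.1, 65.3 and 68.6 in unstimulated PGE2, 43.8, 55.1, 51.9 and 64.8 in stimulated untreated and 52.9, 57.4, 68.4 and 72.3 CPM in stimulated PGE2 cells. All groups overlapped, and in each group replicate 1 was the lowest. None of the pairwise comparisons passed the threshold, the smallest edgeR adjusted p being 0.22 for stimulation without PGE2 (log2 fold change -0.18). With the replicate number as a block, the edgeR adjusted p was 0.00849 for PGE2 in stimulated cells (log2 fold change 0.23) and 0.025 for stimulation without PGE2 (-0.17), so these calls depend on the block. Without unstimulated untreated replicate 1 the latter also passed unblocked (edgeR adjusted p = 0.0481).

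Of the calcineurin genes, *Ppp3ca*, which encodes the alpha catalytic subunit, was lower with PGE2 in both states. The unstimulated untreated replicates had 109, 92.2, 84.6 and 82.0 CPM and the unstimulated PGE2 replicates 72.5, 65.7, 55.3 and 53.9 CPM. The groups did not overlap, and *Ppp3ca* fell 1.47-fold (log2 fold change -0.55, SE 0.102, edgeR adjusted p = 0.00199). In stimulated cells it had 76.5, 68.97, 70.3 and 62.4 CPM untreated and 50.9, 52.0, 48.5 and 45.0 CPM with PGE2, again apart, a 1.41-fold fall (log2 fold change -0.50, SE 0.0759, edgeR adjusted p = 0.00353). Stimulation lowered it 1.33-fold without PGE2 (edgeR adjusted p = 0.00221) and 1.24-fold with PGE2 (edgeR adjusted p = 0.0163), the last not passing without unstimulated PGE2 replicate 2 (adjusted p = 0.0509).

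*Ppp3cc*, the gamma catalytic subunit, had 104, 102, 104 and 103 CPM in unstimulated untreated cells, the narrowest spread of any member in that group relative to its mean. With PGE2 the unstimulated replicates had 72.7, 71.2, 89.8 and 89.2 CPM, replicates 1 and 2 being lower than 3 and 4, a 1.26-fold fall (log2 fold change -0.33, SE 0.0872, edgeR adjusted p = 0.0147). This call was lost without unstimulated PGE2 replicate 2 (edgeR adjusted p = 0.058). After stimulation it had 50.2, 52.3, 62.3 and 64.9 CPM untreated and 42.8, 47.5, 63.8 and 65.2 CPM with PGE2, ranges that overlapped (log2 fold change -0.06, SE 0.148, edgeR adjusted p = 0.819). Stimulation lowered *Ppp3cc* 1.82-fold without PGE2 (edgeR adjusted p = 1e-06) and 1.46-fold with it (edgeR adjusted p = 0.00572).

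The remaining catalytic gene, *Ppp3cb*, was not among the 10 and is given to complete the share of each subunit. As a description of FPKM without a test, *Ppp3cc* made up 57.1% of the summed catalytic transcripts in unstimulated untreated, 55.9% in unstimulated PGE2, 44.9% in stimulated untreated and 45.0% in stimulated PGE2 cells. *Ppp3cb* made up 27.8%, 31.2%, 38.8% and 42.7% in the same order, and *Ppp3ca* 15.1%, 12.9%, 16.3% and 12.2%. The sum of the 3 was 57.7, 46.5, 40.6 and 38.4 FPKM. It was thus highest in the cells that received neither PGE2 nor beads.

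*Rcan1*, the calcineurin inhibitor, was the least counted member, with between 214 and 428 counts per library. It had 11.7, 12.01, 11.8 and 12.3 CPM in unstimulated untreated, 11.6, 10.6, 11.8 and 10.6 in unstimulated PGE2, 10.9, 11.1, 10.8 and 11.3 in stimulated untreated and 10.7, 8.95, 9.15 and 9.14 CPM in stimulated PGE2 cells. No comparison passed the threshold. The stimulated PGE2 replicates all lay below the stimulated untreated ones, replicate 1 only just (log2 fold change -0.21, SE 0.0961, edgeR adjusted p = 0.19). Stimulation without PGE2 gave -0.13 (SE 0.0875, edgeR adjusted p = 0.206), again with the stimulated replicates below all unstimulated ones, and stimulation with PGE2 gave -0.22 (SE 0.105, edgeR adjusted p = 0.0926). The 2 start sites shown above are summed in these counts, and without stimulated PGE2 replicate 1 the fall with stimulation in the presence of PGE2 passed (edgeR adjusted p = 0.0367).

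Of the 3 NFAT genes, *Nfatc1*, whose own promoter is a known NFAT target, was the one that rose with stimulation. It had 177, 161, 161 and 158 CPM in unstimulated untreated and 477, 485, 417 and 398 CPM in stimulated untreated cells, far apart, a 2.69-fold rise (log2 fold change 1.43, SE 0.0876, edgeR adjusted p = 4.64e-08). In stimulated PGE2 cells it had 349.6, 328, 266 and 264 CPM, each below every stimulated untreated replicate, a 1.46-fold fall (log2 fold change -0.55, SE 0.109, edgeR adjusted p = 0.0125). In unstimulated PGE2 cells it had 160.2, 144, 146 and 144 CPM, overlapping the untreated replicates (log2 fold change -0.13, SE 0.0547, edgeR adjusted p = 0.113). With the replicate number as a block the last difference passed (-0.12, edgeR adjusted p = 0.00637). Stimulation in the presence of PGE2 raised *Nfatc1* 2.06-fold (edgeR adjusted p = 1.03e-05).

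*Nfatc2*, the NFAT gene long known from resting T cells, fell with stimulation. It had 95.7, 89.1, 86.4 and 84.2 CPM in unstimulated untreated and 53.9, 67.4, 63.2 and 64.6 CPM in stimulated untreated cells, a 1.44-fold fall without overlap (log2 fold change -0.53, SE 0.0765, edgeR adjusted p = 5.15e-05). Stimulated PGE2 replicates were lower again, at 40.04, 44.0, 47.6 and 45.4 CPM, all below the stimulated untreated ones, a 1.40-fold fall (log2 fold change -0.49, SE 0.0887, edgeR adjusted p = 0.00849). Unstimulated PGE2 cells had 86.8, 80.2, 80.3 and 74.0 CPM, overlapping the untreated ones (log2 fold change -0.13, SE 0.0588, edgeR adjusted p = 0.139), and passed only with the replicate block (-0.13, edgeR adjusted p = 0.00829). Stimulation with PGE2 lowered it 1.80-fold (edgeR adjusted p = 4.1e-06).

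*Nfatc3* had 291, 272, 244 and 246 CPM in unstimulated untreated and 112, 112, 111 and 133 CPM in stimulated untreated cells, a 2.27-fold fall without overlap (log2 fold change -1.18, SE 0.0810, edgeR adjusted p = 9.74e-08). With PGE2 the stimulated replicates had 127, 126, 144 and 154 CPM, overlapping through untreated replicate 4 (log2 fold change 0.24, SE 0.0915, edgeR adjusted p = 0.118). With the replicate block this difference passed as a rise (0.24, edgeR adjusted p = 0.00165), opposite in sign to *Nfatc1* and *Nfatc2*. Unstimulated PGE2 cells had 298, 258, 231 and 225 CPM (log2 fold change -0.04, edgeR adjusted p = 0.795), and stimulation with PGE2 lowered *Nfatc3* 1.81-fold (edgeR adjusted p = 1.87e-05).

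The 3 NFAT genes thus made up different parts of their summed FPKM, which is given as a description without a test. *Nfatc1* was 41.8% ± 0.991 (SD, n = 4) of the sum in unstimulated untreated and 40.7% ± 1.69 in unstimulated PGE2 cells, against 78.9% ± 2.65 in stimulated untreated and 71.5% ± 4.65 in stimulated PGE2 cells. The stimulated ranges overlapped, from 75.4% to 81.4% untreated and from 67.1% to 76.3% with PGE2. The share of *Nfatc3* was 13.3% in stimulated untreated (11.7% to 16.01%) and 21.0% in stimulated PGE2 cells (17.6% to 24.8%), which did not overlap. *Nfatc2* was 15.9%, 15.5%, 7.82% and 7.46% across the groups in the order of the plot. The summed level was 50.4 ± 3.47, 47.4 ± 4.19, 72.1 ± 6.27 and 53.8 ± 4.83 FPKM in that order.

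**Figure D2:**
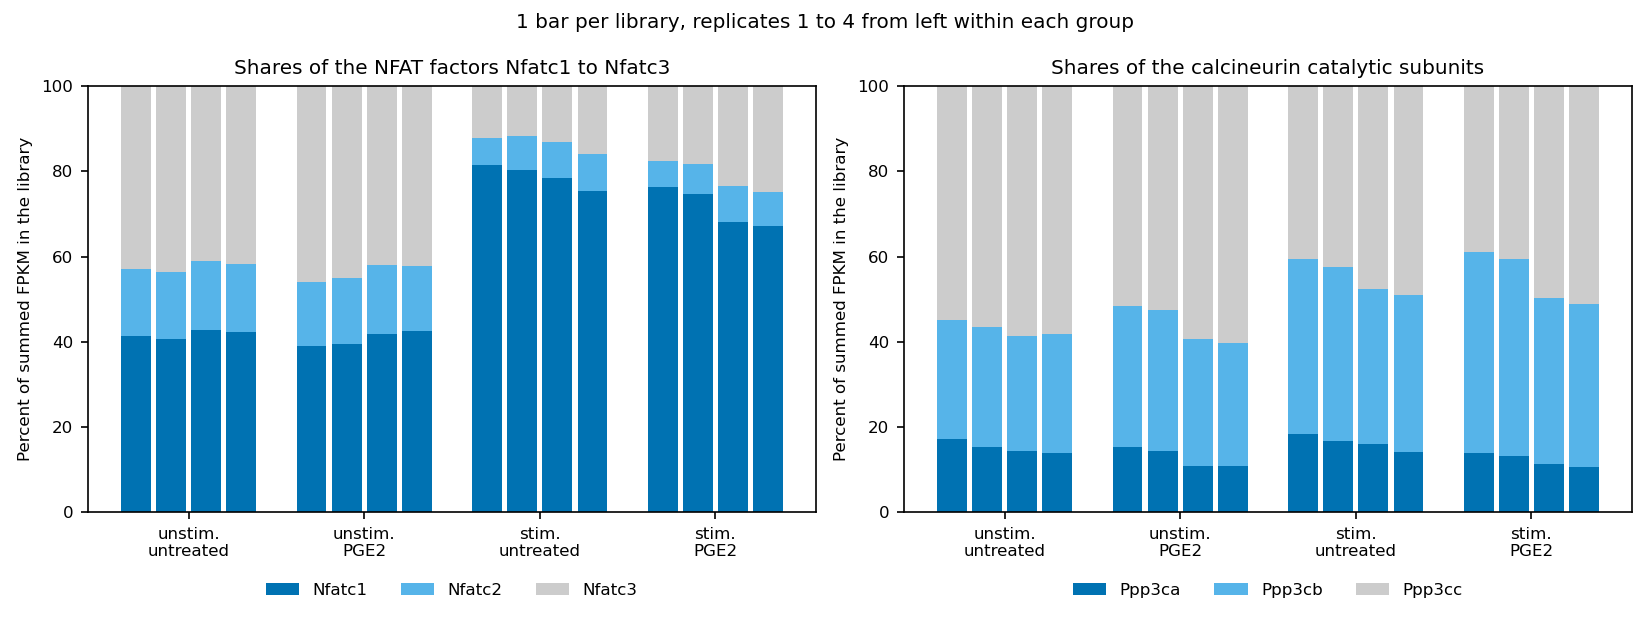
Share of each gene in the summed FPKM of *Nfatc1*, *Nfatc2* and *Nfatc3* and of the catalytic subunit genes *Ppp3ca*, *Ppp3cb* and *Ppp3cc*, in percent, with 1 bar per library and replicates 1 to 4 from the left in each group. On average *Nfatc1* goes from 41.8% in unstimulated untreated to 78.9% in stimulated untreated cells, and *Ppp3cc* from 57.1% to 44.9%.

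*Camk4*, the calcium and calmodulin dependent kinase IV, had the largest change with PGE2 of the 10 genes. It had 163, 161, 164 and 169.6 CPM in unstimulated untreated and 382, 346, 346 and 318 CPM in unstimulated PGE2 cells, groups that lay far apart, a 2.15-fold rise (log2 fold change 1.10, SE 0.0592, edgeR adjusted p = 2.21e-06). In stimulated cells it had 92.1, 90.5, 118 and 116 CPM untreated and 200.4, 202, 228 and 226 CPM with PGE2, a 2.06-fold rise (log2 fold change 1.04, SE 0.106, edgeR adjusted p = 0.000416). Stimulation lowered it in both settings, 1.597-fold without PGE2 (edgeR adjusted p = 1.88e-05) and 1.61-fold with it (edgeR adjusted p = 1.36e-05). Stimulated PGE2 cells therefore still had more *Camk4* than unstimulated untreated cells in every replicate.

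Counted by comparison, PGE2 in stimulated cells raised 1 of the 10 genes (*Camk4*) and lowered 3 (*Ppp3ca*, *Nfatc1* and *Nfatc2*) at an adjusted p below 0.05. Over all 13922 genes tested, 9.84% were called, 6.04% higher and 3.8% lower. Groups did not overlap for 5 of the 10 genes (the same 4 and *Rcan1*) and for 17.9% of all genes. *Camk4* alone also passed a change of 2-fold, as did 1.75% of all genes. The median log2 fold change of the 10 was -0.02, against -0.0061 for all genes. With the replicate block 6 of the 10 were called, *Itpr1* and *Nfatc3* being added, while the number of all genes called grew to 5544, 4.05 times as many.

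PGE2 in unstimulated cells raised *Camk4* and *Orai1* and lowered *Ppp3ca* and *Ppp3cc*. These 4 of 10 stand beside 28.4% of the 14505 genes tested, 12.9% higher and 15.5% lower, so the share called is not far from that of all genes. The same 4 genes did not overlap between groups, as against 28.8% of all genes. *Camk4* passed 2-fold, as did 3.38% of all genes, and the median of the 10 was -0.06 against -0.0010. With the block 6 of 10 and 6938 of all genes were called.

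Stimulation without PGE2 raised 2 of the 10 genes (*Orai1* and *Nfatc1*) and lowered 6 (*Nfatc3*, *Stim1*, *Ppp3cc*, *Camk4*, *Nfatc2* and *Ppp3ca*). Of all 14205 genes 66.5% were called, 31.7% higher and 34.8% lower, and groups did not overlap for 9 of the 10 genes and 61.6% of all. *Orai1*, *Nfatc1*, *Nfatc3* and *Stim1* passed 2-fold, against 23.2% of all genes. Stimulation with PGE2 also raised 2 and lowered 6, the same 8 genes, beside 64.2% of the 14507 genes tested (32.5% higher and 31.7% lower). There 8 of the 10 did not overlap, against 60.2% of all, and *Orai1*, *Nfatc1* and *Stim1* passed 2-fold, against 22.1% of all. The median of the 10 was -0.47 without and -0.43 with PGE2, against -0.03 and 0.0022 for all genes. The pairwise comparisons share groups, so they are not independent of each other.

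**Figure D3:**
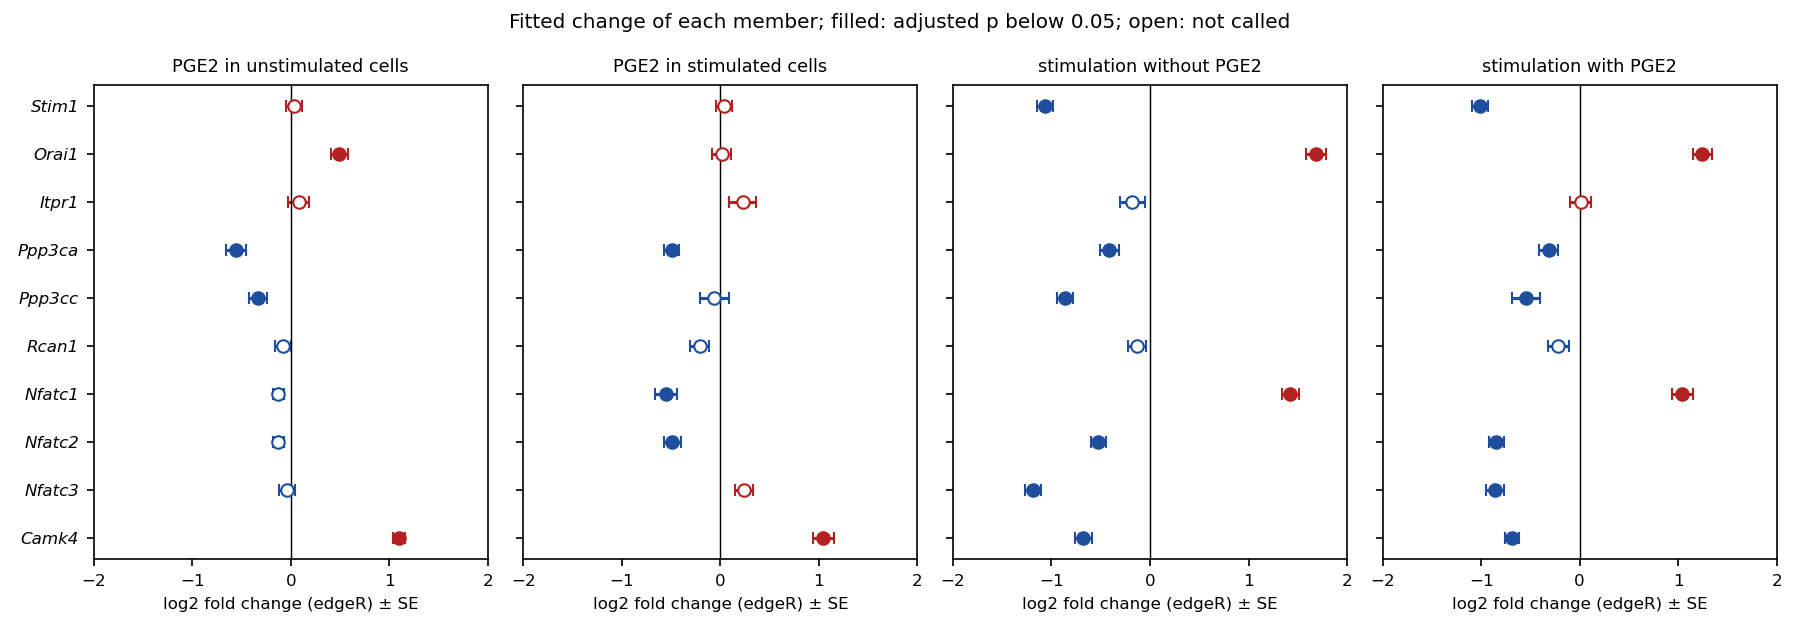
Log2 fold changes of the 10 genes in the 4 pairwise comparisons, with bars for the SE of the edgeR fit. Filled points passed an adjusted p below 0.05, *Orai1* and *Nfatc1* lie to the right in both comparisons of stimulation, and *Camk4* lies to the right in both comparisons of PGE2 and to the left in those of stimulation.

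Whether PGE2 acted differently in stimulated and unstimulated cells was tested as an interaction over all 16 samples. It called 0 of the 10 genes by edgeR, beside 0.749% of the 15096 genes tested, and 4 of the 10 had an unadjusted p below 0.05. These were *Orai1* (log2 difference -0.47, adjusted p = 0.142), *Nfatc1* (-0.41, adjusted p = 0.209), *Nfatc2* (-0.35, adjusted p = 0.213) and *Nfatc3* (0.29, adjusted p = 0.527). DESeq2 and limma also called 0. With the replicate block 1 was called, *Nfatc1* (-0.42, edgeR adjusted p = 0.0159), so a larger fall of *Nfatc1* with PGE2 in stimulated than in unstimulated cells passed only in that fit. For *Orai1* and *Nfatc2*, each called in one state and not in the other, no fit that was run called a difference between the states. *Camk4*, with log2 changes of 1.10 and 1.04 in the separate comparisons of PGE2, had an interaction of -0.04.

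The 5 lists of other genes of the pathway were read beside the 10, with 63 genes of which 54 were tested. PGE2 raised 2 and lowered 2 of the 54 in stimulated cells and raised 13 and lowered 7 in unstimulated cells. Of all genes 6.04% were higher and 3.8% lower with PGE2 in stimulated cells, and 12.9% and 15.5% in unstimulated cells. With the replicate block the counts of the 54 were 14 and 12 in stimulated and 17 and 11 in unstimulated cells. Those of all genes were then 2662 and 2882 of 13922 in stimulated and 3428 and 3510 of 14505 in unstimulated cells. Without stimulated PGE2 replicate 1 the number of the 54 raised in stimulated cells was 5. It was 1 without stimulated untreated replicate 2 or stimulated PGE2 replicate 3 or 4. Of all genes 841 were higher in the main fit, 1191 without stimulated PGE2 replicate 1 and 402 without stimulated untreated replicate 2. Without stimulated PGE2 replicate 3 or 4 the numbers were 404 and 509. Stimulation raised 15 and lowered 25 of the 54 both without and with PGE2, with medians of -0.23 and -0.19 log2. Of all genes 31.7% rose and 34.8% fell without PGE2 (median -0.03), and 32.5% rose and 31.7% fell with it (median 0.0022). These shares of all genes are also the measure for the counts of each list below.

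Among 13 genes of calcium entry and release, PGE2 raised 1 and lowered 1 in stimulated cells and raised 3 and lowered 2 in unstimulated cells. In stimulated cells 2 were higher without stimulated PGE2 replicate 1. In unstimulated cells the number lowered was 1 without untreated replicate 1 or 4 or PGE2 replicate 2, 3 or 4, and 3 without PGE2 replicate 1. *Plcg2*, a phospholipase C gamma best known from B cells, fell in both, from 16.9 ± 0.929 to 9.44 ± 0.824 CPM in stimulated cells (SD, n = 4, log2 fold change -0.83, edgeR adjusted p = 0.000807) and from 11.4 ± 2.02 to 5.76 ± 0.615 CPM in unstimulated cells (-0.97, edgeR adjusted p = 0.000431). The summed B cell markers, 2 of 7 of which (*Cd79a* and *Cd79b*) averaged at least 1 CPM, ran from 12.2 to 22.1 CPM in unstimulated untreated, 10.1 to 17.9 in unstimulated PGE2, 4.92 to 12.7 in stimulated untreated and 4.60 to 10.6 CPM in stimulated PGE2 cells. Their part in the change of *Plcg2* was not tested. *Plcg1*, the form that acts below the T cell receptor, went from 315 ± 11.1 to 433 ± 19.7 CPM in unstimulated cells (0.48, edgeR adjusted p = 0.00017). In stimulated cells *Plcg1* had a like change that was not called (0.47, edgeR adjusted p = 0.0930), and its interaction was 0.0073. *Saraf*, which turns off store-operated entry, rose from 264 ± 24.5 to 336 ± 19.2 CPM in stimulated cells (0.36, edgeR adjusted p = 0.0223), a call lost without stimulated untreated replicate 2 (adjusted p = 0.0697) or stimulated PGE2 replicate 3 (0.0706) or 4 (0.0514). With stimulation 3 rose and 7 fell without PGE2 and 2 rose and 6 fell with it. The falls were led by *Orai2* (-1.45 and -1.26) and *Itpr3* (-1.32 and -1.25), another channel subunit and another store receptor.

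Among 12 pumps and mitochondrial calcium genes, *Atp2a3*, a pump that returns calcium to the store, fell with PGE2 in both states, from 193 ± 6.75 to 138 ± 8.97 CPM in stimulated cells (-0.48, edgeR adjusted p = 0.00234) and from 326 ± 37.7 to 228 ± 16.9 CPM in unstimulated cells (-0.50, edgeR adjusted p = 0.0015). It was the 1 gene of the list called in stimulated cells, and in unstimulated cells 4 rose and 2 fell. The number raised there was 1 without untreated replicate 1 or PGE2 replicate 3 and 2 without untreated replicate 2 or 4 or PGE2 replicate 1, 2 or 4. In stimulated cells 1 was higher without untreated replicate 4 and 2 without PGE2 replicate 1. *Atp2b4*, a pump of the plasma membrane, rose with PGE2 in unstimulated cells from 55.1 ± 1.84 to 79.7 ± 7.18 CPM (0.55, edgeR adjusted p = 9.26e-05). In stimulated cells *Atp2b4* had a like change that was not called (0.54, edgeR adjusted p = 0.110), and its interaction was 0.0065. *Atp2a2*, the other store pump, fell in unstimulated cells from 130.2 ± 11.1 to 93.1 ± 10.3 CPM (-0.47, edgeR adjusted p = 0.00112). Stimulation raised 4 and lowered 6 in either setting, with *Atp2a2* (1.53 without and 1.82 with PGE2) and *Mcu*, the mitochondrial uniporter (1.14 and 1.39), up and *Atp2b4* (-1.16 and -1.12) down.

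The list of other calcineurin subunits and inhibitors, with 7 genes tested, also held *Ppia* and *Fkbp1a*, genes of drug-binding proteins outside these classes. Of the 7, edgeR called 0 for PGE2 in stimulated cells (1 at an unadjusted p below 0.05, and 1 lower by DESeq2). In unstimulated cells PGE2 raised *Rcan3* (0.25) and lowered *Ppia*, which encodes cyclophilin A (-0.31). The *Rcan3* call was lost without unstimulated untreated replicate 1, 2 or 3 or PGE2 replicate 3 or 4 (edgeR adjusted p from 0.0529 to 0.109). The *Ppia* call was lost without untreated replicate 2, 3 or 4 or PGE2 replicate 1, 2 or 3 (edgeR adjusted p from 0.0595 to 0.121). Stimulation raised 3 and lowered 1 without PGE2 and raised 4 and lowered 1 with it. *Fkbp1a*, which encodes the protein that tacrolimus binds to block calcineurin, rose (1.07 and 1.15) and *Rcan3* fell (-0.39 and -0.57). The list of NFAT factors and NFAT kinases, with 10 genes tested, also held *Homer3*, which is neither. In this list *Dyrk1b* rose with PGE2 in both states, from 5.05 ± 0.744 to 9.02 ± 0.602 CPM in stimulated cells (0.84, edgeR adjusted p = 0.00382) and from 12.1 ± 1.56 to 23.7 ± 2.59 CPM in unstimulated cells (0.98, edgeR adjusted p = 7.45e-05). It was the 1 call in stimulated cells, while 4 rose and 0 fell in unstimulated cells. *Dyrk1b* fell with stimulation (-1.28 and -1.37), and *Nfat5*, which lacks the calcineurin docking region of the other NFAT proteins, rose from 57.4 ± 5.33 to 174 ± 14.1 CPM without PGE2 (1.59). *Csnk1e*, a casein kinase 1 gene, was the one pathway gene called in the interaction (-0.65, SE 0.103, edgeR adjusted p = 0.00614). It went from 12.3 ± 0.649 to 25.8 ± 0.857 CPM with stimulation in untreated cells and from 16.8 ± 0.937 to 22.4 ± 1.38 CPM in PGE2 cells.

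Among 12 genes listed for calmodulin and its kinases other than *Camk4*, edgeR called 0 for PGE2 in stimulated cells (4 at an unadjusted p below 0.05, and 0 by DESeq2), and PGE2 raised 1 and lowered 2 in unstimulated cells. *Camkk2*, one of the kinases that activate CAMK4, fell from 26.0 ± 0.185 to 10.7 ± 1.30 CPM in unstimulated cells (-1.26, edgeR adjusted p = 5.63e-06), where *Camk4* rose. *Camk2n1*, an inhibitor of CAMK2, rose from 10.8 ± 1.48 to 21.1 ± 3.18 CPM (0.98, edgeR adjusted p = 0.000288). With stimulation 2 rose and 6 fell without PGE2 and 3 rose and 7 fell with it. *Camkk2* rose to 86.4 ± 10.2 CPM without PGE2 (1.72) and to 64.7 ± 17.1 CPM with it (2.62), and *Camkk1* fell (-1.37 and -1.76).

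A list of 25 genes known from other work to be induced through calcineurin and NFAT was read beside the 10, without a test of what drives them here. The list was chosen with earlier results of these data known, so its shares and medians beside those of all genes are description only. Stimulation raised 23 of the 25 and lowered 1 without PGE2 (median log2 fold change 3.36, against -0.03 for all genes) and raised 21 and lowered 1 with PGE2 (median 3.07, against 0.0022). Of all genes 31.7% rose and 34.8% fell without PGE2, and 32.5% and 31.7% with it. *Ifng*, the gene of interferon gamma, rose by 6.54 and 7.49 log2 units, and *Il2*, the gene of the T cell growth factor IL-2, by 5.95 and 7.24. PGE2 raised 3 and lowered 8 of the 25 in stimulated cells (median -0.34, against -0.0061 for all genes), and 7 of these 11 passed 2-fold. Of all genes 6.04% were higher, 3.8% lower and 1.75% past 2-fold. *Il2* went from 101 ± 47.3 to 26.0 ± 16.6 CPM (-1.95, edgeR adjusted p = 0.0305), *Il13* from 14.7 ± 3.17 to 3.25 ± 1.35 CPM (-2.16, edgeR adjusted p = 0.00151) and *Ccl3* from 244 ± 84.1 to 61.4 ± 44.9 CPM (-1.98, edgeR adjusted p = 0.0345). *Fasl*, which encodes a death ligand, rose from 8.54 ± 2.79 to 23.9 ± 3.67 CPM (1.49, edgeR adjusted p = 0.00191), and *Ctla4*, an inhibitory receptor gene, from 565 ± 174 to 1076 ± 176 CPM (0.93, edgeR adjusted p = 0.0225). The count of 8 lower depended on single libraries. It was 1 without stimulated untreated replicate 2 or stimulated PGE2 replicate 3, 4 without stimulated untreated replicate 1, 5 without stimulated untreated replicate 3 or stimulated PGE2 replicate 2, and 11 without stimulated PGE2 replicate 1. Of all genes 529 were lower in the main fit, 228 without stimulated untreated replicate 2 and 226 without stimulated PGE2 replicate 3. Without stimulated PGE2 replicate 1 that number was 663. The median of the 25 was -0.54 without stimulated PGE2 replicate 1 and -0.53 without stimulated PGE2 replicate 4. Without any 1 of stimulated untreated replicates 1, 2 and 3 and stimulated PGE2 replicates 2 and 3, the calls of *Il2* (edgeR adjusted p from 0.0555 to 0.0951) and *Ccl3* (0.0603 to 0.0960) were lost. The *Ctla4* call was lost without stimulated untreated replicate 2 (edgeR adjusted p = 0.0803) or stimulated PGE2 replicate 3 (0.0725), and the number raised was then 1 in place of 3. With the replicate block 3 of the 25 were higher and 15 lower, beside 2662 and 2882 of all 13922 genes.

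In unstimulated cells PGE2 raised 4 and lowered 7 of the 23 genes of this list that were tested (median -0.46, against -0.0010 for all genes), and 7 and 12 with the replicate block. Of all genes 12.9% were higher and 15.5% lower, and with the block 3428 and 3510 of 14505. The median was -0.14 without untreated replicate 4, -0.24 without PGE2 replicate 1 and -0.69 without PGE2 replicate 4. *Fasl* rose from 3.93 ± 1.22 to 14.4 ± 1.94 CPM (1.88, edgeR adjusted p = 5.31e-05) and *Pdcd1*, the gene of PD-1, from 15.3 ± 6.40 to 45.2 ± 16.7 CPM (1.58, edgeR adjusted p = 0.00378). *Ccl4*, a chemokine gene, fell from 12.8 ± 7.02 to 2.94 ± 1.92 CPM (-2.08, edgeR adjusted p = 0.00408). *Ifng* (-2.05) and *Ccl3* (-1.98) also passed, with overlapping groups. Both calls were lost without unstimulated untreated replicate 3 or 4 or unstimulated PGE2 replicate 1, 2 or 3 (edgeR adjusted p from 0.0576 to 0.180 for *Ifng* and 0.0587 to 0.112 for *Ccl3*), and the *Ifng* value was -1.03 without untreated replicate 4. The count of 7 lower was 3 without untreated replicate 4 or PGE2 replicate 1, 2 or 3, 4 without untreated replicate 3, and 11 without PGE2 replicate 4. Of all genes 2253 were lower in the main fit, 2041 without untreated replicate 4 and 2048 without untreated replicate 3. Without PGE2 replicate 1, 2, 3 or 4 the numbers were 2229, 1629, 1840 and 2158. *Pdcd1* was the one gene of the list called in the interaction (-1.75, edgeR adjusted p = 0.0316), a call lost in 9 of the 16 fits with 1 library left out (edgeR adjusted p from 0.0521 to 0.0866). These were the fits without unstimulated untreated replicate 2, unstimulated PGE2 replicate 3 or 4, or replicate 1, 2 or 3 of either stimulated group. Of the *Ifng* exon bases 25.9% are shared with a gene on the same strand. That gene had a mean of 5.98 CPM over all 16 libraries, stimulated ones included, so the *Ifng* level in unstimulated cells is uncertain.

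**Figure D4:**
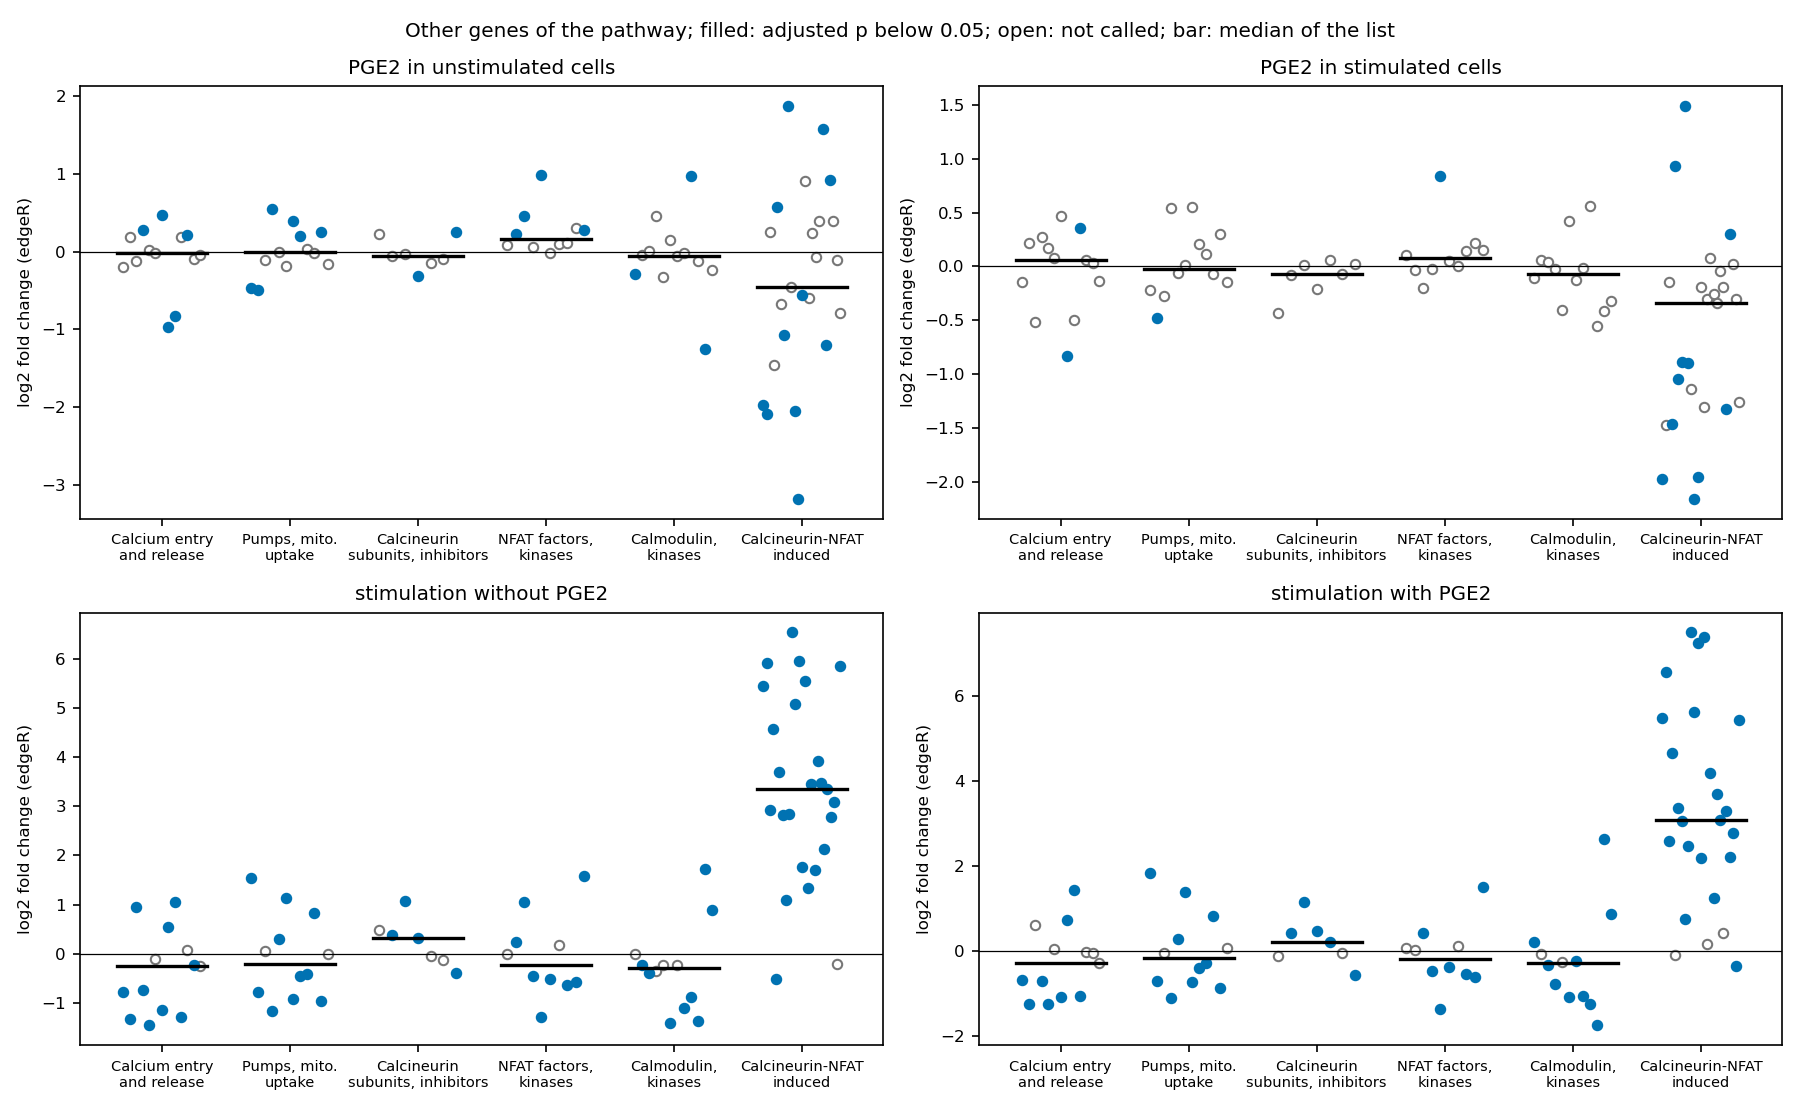
Log2 fold changes of the genes of the 5 pathway lists and of the 25 genes known to be induced through calcineurin and NFAT, in the 4 pairwise comparisons. Each point is a gene, filled where it passed an adjusted p below 0.05, and black bars mark list medians. In the induced list most points lie far above 0 with stimulation (median 3.36 without PGE2) and on both sides of 0 with PGE2 (median -0.34 in stimulated cells).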

How the data were processed

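Poly(A) RNA from 16 samples (4 groups of 4) was made into NEBNext Ultra libraries and sequenced as paired ends. Per the paper's methods and the processing notes, the authors aligned reads with HISAT2 2.0.5 to GRCm38 and counted them per gene with featureCounts 1.5.0-p3. The annotation release, counting options and use of strand are not given in the sources used here. Their deposited counts were used as they stand, as raw whole reads for each gene. The deposited FPKM values were made by the authors from the count, the gene length and the library total, and are used here for levels only.

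Counts were tested with edgeR 4.0.16 (quasi-likelihood test, R 4.3.3) after filterByExpr with a minimum count of 10 and TMM scaling, with 8 samples in each pairwise fit and all 16 in the interaction. P-values were adjusted by Benjamini-Hochberg over all genes tested, and a gene was called at an adjusted p below 0.05. The 2-fold threshold was the one the authors used. The members and gene lists were chosen with earlier results of these data known. All 10 members are named, and from each list, per comparison, up to 3 called genes with the largest rise and fall among genes of at least 1 CPM on average, of which the text gives a part, and in the interaction the called ones. The scripts were tested on simulated data.

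Libraries held 22678254 to 42950763 counts, and replicates differed by more than sampling noise (chi-square per degree of freedom 8.46 to 56.8). Samples with the same replicate number deviated together in the comparisons of PGE2 (correlation 0.343 to 0.553 stimulated, 0.205 to 0.572 unstimulated) and in stimulation without PGE2 (0.176 to 0.445), so fits with the number as a block are given there. Alternatives were DESeq2 1.42.0, limma 3.58.1 on log2(FPKM + 1), other scaling, no filter, 1 fit of all samples, the block and leaving out each library. Those on the lists were chosen after seeing the data.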

Additional observations from a re-analysis of the deposited data

Results flagged for a closer look

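In 3 of the 40 groups of 4 values (10 genes in 4 groups), 1 replicate stood far from the other 3 by Dixon's test, which chance does in about 1 in 20 groups. *Rcan1* had 10.7 CPM in stimulated PGE2 replicate 1, above 8.95 to 9.15 CPM in the others and closest to the stimulated untreated replicates. *Nfatc1* had 160.2 CPM in unstimulated PGE2 replicate 1, above 144 to 146 CPM, and *Nfatc3* had 133 CPM in stimulated untreated replicate 4, above 111 to 112 CPM.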

How the results depend on the processing

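Of 920 alternative values for the 10 genes, 872 kept direction and side of the threshold, 3 lost a call, 13 gained one and 32 changed sign, none of these last being of a called result. The number of genes called for PGE2 in stimulated cells was 2066 with DESeq2, 679 with limma without a filter, 5544 with the replicate block, 2161 in 1 fit of all 16 samples and 630 (without stimulated untreated replicate 2 or stimulated PGE2 replicate 3) to 1854 (without stimulated PGE2 replicate 1) with 1 library left out. It was 6938 for PGE2 in unstimulated cells with the block, and in the interaction 234 with DESeq2, 43, 53 and 37 with limma, 408 with the block and 44 (without unstimulated untreated replicate 2) to 217 (without stimulated PGE2 replicate 4) with 1 library left out. The block called 1 of the 10 genes in the interaction, *Nfatc1* (adjusted p = 0.0159). For stimulation with PGE2 the numbers paired only 2 of 4 pairs above 0.1, and the block changed no call of the 10 genes there. Among all 5 NFAT genes the share of *Nfatc1* was 39.4%, 37.8%, 70.1% and 60.3% in the order of groups above.

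Lost calls were *Nfatc1* with PGE2 in stimulated cells by limma without a filter (adjusted p = 0.0693) and the *Ppp3cc* and *Ppp3ca* calls named above. *Rcan1* passed for stimulation with upper-quartile scaling (adjusted p = 0.0396 without and 0.0114 with PGE2), a scaling that moved the median of all genes to -0.13 in both. With PGE2 it also passed by limma (0.0385 and 0.0369) and in 1 fit of all 16 samples (0.0208). Sign changes were of values near 0: *Orai1* with PGE2 in stimulated cells by DESeq2 (-0.0023), *Itpr1* for stimulation with PGE2 by upper-quartile scaling (-0.11), no filter (-0.042) and limma (-0.0188 and -0.0252), and *Stim1* in the interaction without a filter (-0.0076). With 1 library left out, the values that changed sign ran from -0.0588 to 0.0843 (*Orai1*, PGE2 in stimulated cells), -0.15 to 0.0520 (*Ppp3cc*, same), -0.0365 to 0.0740 (*Stim1*, PGE2 in unstimulated cells), -0.0190 to 0.15 (*Itpr1*, same), -0.11 to 0.0112 (*Nfatc3*, same), -0.0733 to 0.0836 (*Itpr1*, stimulation with PGE2), and, in the interaction, -0.0377 to 0.0970 (*Stim1*), -0.0186 to 0.14 (*Ppp3ca*) and -0.12 to 0.0273 (*Camk4*). The cause was not tested. The 2-fold change of *Camk4* held in 14 of 17 alternatives in stimulated cells and 17 in unstimulated cells, of *Stim1* in 15 without and 13 with PGE2, and of *Nfatc1* with PGE2 in 9. For the named list genes, 1486 of 1611 alternatives kept the call, 125 lost it and 0 changed sign.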
